A study of Mus musculus with 36 samples.

Results

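The transcriptome of mouse embryonic stem cells (ESC) that had lost Setd1a was compared with that of their wild-type (WT) counterpart in serum medium. The libraries were chosen by their titles and number 4 of the 36 RNA-seq libraries of the series: 2 Setd1a knockout (KO) libraries, whose titles name tamoxifen, and 2 Setd1a WT libraries, whose titles do not. All 4 came from ESC described as cycling and kept in medium with LIF (leukaemia inhibitory factor) and fetal calf serum (FCS). The rest of the series holds KO and WT pairs of libraries for Setd1a in 2i medium and in epiblast stem cell (EpiSC) conditions, and for other genes of the same field. Of these, Setd1a KO and WT in 2i, Setd1a KO and WT as EpiSC, Bod1L KO and WT in FCS and Mll2 KO and WT in FCS, with 2 libraries in each group, are used here for comparison. In all of these groups too, the titles of the KO libraries name tamoxifen and those of the WT libraries do not.

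Setd1a is the catalytic subunit of a COMPASS-type complex, a histone methyltransferase that places methyl groups on lysine 4 of histone H3 at the promoters of active genes. The related enzymes Setd1b and the MLL proteins work in complexes that share core subunits with it, and Bod1L is a large protein that associates with Setd1a. In serum with LIF, ESC self-renew as a mixture of cells that differ in how close they are to the naive epiblast state and to the formative state that precedes lineage choice.

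Tamoxifen is named for the KO libraries only, so the treatment and the genotype cannot be told apart within the Setd1a line or within the other lines used. The deleted part of the gene, the recombinase that deletes it and the number of clones behind the cultures are details that the sources used here do not state. The labels call the replicates biological. The p-values rest on the spread between replicate libraries within groups, estimated over all 36 libraries of the series and not from these 4 alone. The KO libraries held 35616858 and 32617799 counts and the WT libraries 33480165 and 39614149 counts, within the range of 24490158 to 40591108 counts of the series. Levels are given below as counts on a per-million scale (CPM) with TMM normalization factors, and a gene was called when its adjusted p in edgeR's quasi-likelihood test was below 0.05.

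Setd1a itself (chr7:127776670-127800122, GRCm38) had 38.1 and 37.3 CPM in the KO libraries, against 58.8 and 54.7 CPM in the WT libraries. Both KO values lay below both WT values, and the log2 fold change of -0.59 ± 0.24 (SE) was not called (adjusted p = 0.576). The count sums over the whole gene, so any transcripts that lack a deleted part would still add to it, and the total is a weak check of the labels. Why the total stayed at this level in KO cells was not tested. The labelled cell type was checked against the transcription factors that define ESC. Pou5f1 stood at 623 and 396 CPM in KO cells and at 530 and 635 CPM in WT cells. Sox2 had 470 and 381 CPM in KO cells, against 358 and 405 CPM in WT cells, and Nanog 482 and 371 CPM in KO cells, against 378 and 368 CPM in WT cells. All 3 were abundant in all 4 libraries.

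Loss of Setd1a was accompanied by lower levels of a set of genes, among them enzymes of DNA repair and of the mitochondrion. Of 23501 genes tested, 174 were called lower in KO cells (0.74%) and 5 higher (0.0213%). The median log2 fold change of all genes tested was 0.05. An unadjusted p below 0.05 was found for 1543 of all genes tested, 955 of them lower and 588 higher. Among genes of at least 5 CPM on average, 1.28% were called lower. Among the 174 lower genes, 160 were protein-coding, and they lay on 20 chromosomes. Their level in KO cells had a median of 32.9% of the WT level and reached at most 55.3% of it. It was below 25% for 47 genes and below 50% for 166. In bulk RNA, fewer cells that express a gene and less RNA of it in each cell cannot be told apart. The WT level of the 160 protein-coding genes had a median of 7.59 RPKM, a level per transcript length, against 3.20 RPKM for all 16715 protein-coding genes tested, and the highest was 101 RPKM. Among protein-coding genes of at least 5 CPM the medians were 8.48 RPKM for 145 lower genes and 8.50 RPKM for all 10512. In each of the 174 genes both KO libraries lay below both WT libraries, as they did in 15.5% of all genes tested. Just inside the threshold were Pgbd1 (adjusted p = 0.0481), Xrcc4 (0.0492) and the higher gene Ptprv (0.0495), and just outside it Dph1 (0.0503), Cep44 (0.0507) and Znrd1as (0.0512).

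The number of lower genes varied with the libraries that entered the fit. Without one library it was 38 (without KO replicate 1), 42 (without KO replicate 2), 97 (without WT replicate 1) or 88 (without WT replicate 2). Of the 174 genes, 26 were called whichever library was left out and 52 in none of these 4 fits. Fitted on the 12 FCS libraries, 51 genes were lower, and fitted on the 4 Setd1a FCS libraries alone edgeR called 0, with 1439 genes at an unadjusted p below 0.05. With same-numbered KO and WT libraries paired as a block, a pairing inferred from the data, 601 genes were lower (2.56%) and 318 higher (1.35%), and all 174 were among the lower ones.

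**Figure D1:**
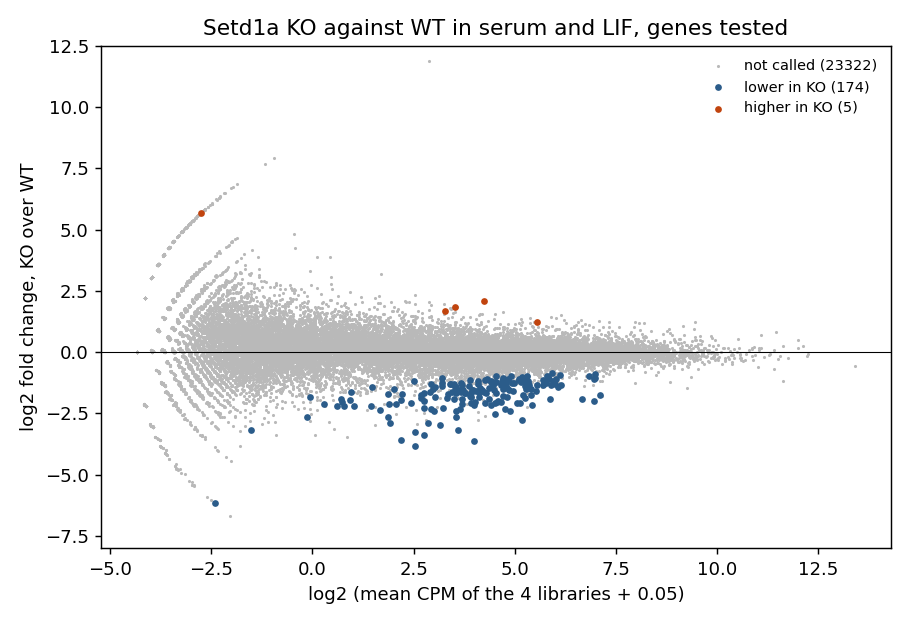
Log2 fold change of each gene tested, Setd1a KO over WT in FCS medium, on the vertical axis, against log2 of its mean CPM in the 4 libraries plus 0.05 on the horizontal axis. Grey points are genes that were not called, blue points the 174 called lower and red points the 5 called higher, and most of the lower genes lie at intermediate levels.

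The genes with the lowest fold changes had little of their WT level left in KO cells. Hsf2bp (chr17:31944769-32034508), which encodes a partner of the recombination protein Brca2, had 2.44 and 2.28 CPM in KO cells and 20.5 and 38.2 CPM in WT cells. Its log2 fold change was -3.64 ± 0.55 (SE; adjusted p = 8.25e-04), and it just missed the threshold without KO replicate 2 (adjusted p = 0.0501). Det1 (chr7:78821547-78847263), a component of a ubiquitin ligase that works with Cop1, had 1.32 and 1.03 CPM in KO cells and 11.1 and 13.4 CPM in WT cells. With a log2 fold change of -3.38 ± 0.28 (adjusted p = 5.87e-07) it was called whichever library was left out. Cbr4 (chr8:61487734-61506694), a reductase of mitochondrial fatty acid synthesis, had 1.12 and 1.03 CPM in KO cells and 9.61 and 11.1 CPM in WT cells. Its log2 fold change was -3.26 ± 0.53 (adjusted p = 0.00185), and the call was lost without KO replicate 1 (adjusted p = 0.0624) or KO replicate 2 (0.0738).

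Ercc6l2 (chr13:63815240-63900302) was the most abundant of the leading genes in WT cells and encodes a Snf2-family ATPase linked to DNA repair. It had 7.70 and 10.8 CPM in KO cells and 62.3 and 64.5 CPM in WT cells, a log2 fold change of -2.78 ± 0.24 (adjusted p = 5.87e-07). Ercc6l2 was called whichever library was left out, and its KO values were a small part of its WT values. Ccdc191 (2.36 and 2.54 CPM in KO cells, 24.8 and 18.9 CPM in WT cells), D3Ertd751e, Thap6, annotated as a transcribed pseudogene, and Ccdc91, which encodes a protein of the trans-Golgi network, were also called in all 4 fits without one library. Their log2 fold changes lay between -3.16 and -2.40.

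Several leading genes rested on few counts or on single libraries. Gm14167, which encodes no protein, had 0 counts in both KO libraries and 7 and 14 counts in the WT libraries. Against a floor of 3 counts per library it was at least 3.22-fold lower in KO cells, and it stayed called only when WT replicate 1 was the library left out. Zkscan7, a zinc finger gene, had 0.932 and 0.443 CPM in KO cells and 7.30 and 9.47 CPM in WT cells, and its log2 fold change of -3.60 ± 0.83 (adjusted p = 0.0380) lost its call whichever library was left out (0.0896 to 0.488). Cep41, which encodes a centrosomal protein, also lost its call in each of the 4 fits (0.0794 to 0.391), with 2.11 and 2.93 CPM in KO cells and 12.2 and 14.5 CPM in WT cells. A330035P11Rik (adjusted p 0.193 to 0.232) and A930037H05Rik (0.0983 to 0.400) lost the call unless WT replicate 2 was the library left out. 1700007L15Rik lost its call without KO replicate 2 (0.226) or WT replicate 2 (0.125), and Rfesd without KO replicate 1 (0.0685) or KO replicate 2 (0.0570).

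**Figure D2:**
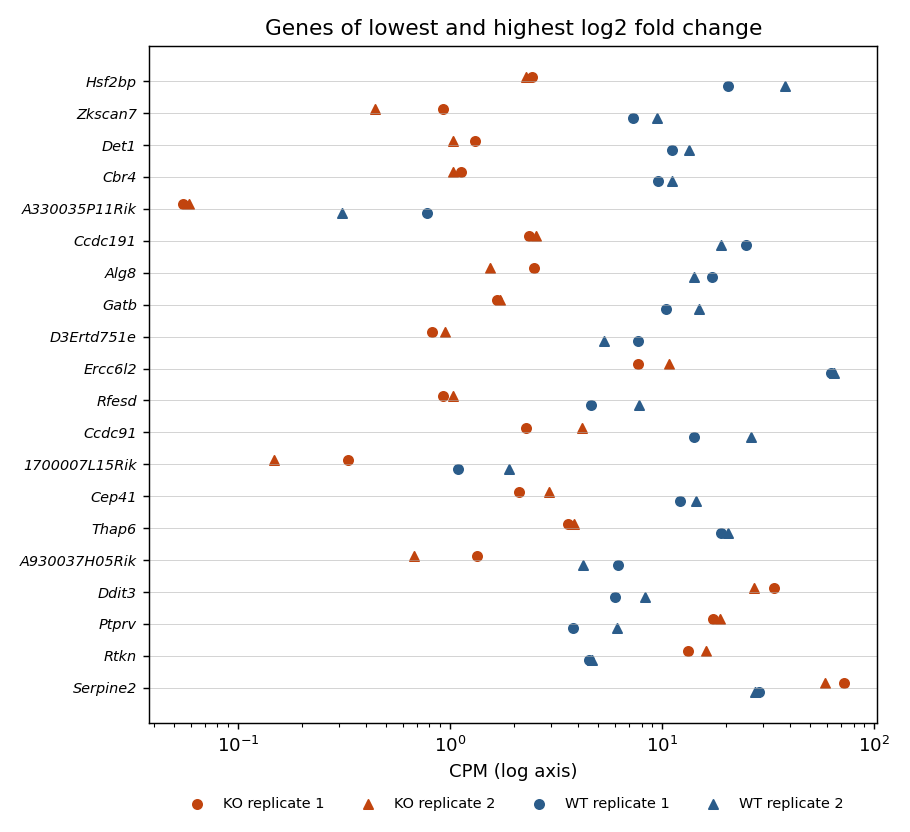
Level in CPM on a log axis of the called genes of lowest (upper rows) and highest (lower rows) log2 fold change in the 2 Setd1a KO (red) and the 2 WT (blue) libraries in FCS medium, leaving out genes at 0 in a library. Circles are replicate 1 and triangles replicate 2; KO and WT points do not overlap in any row, with KO to the left for the lower genes and to the right for the higher ones.

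Genes of several DNA repair pathways were among those called lower. Homologous recombination repairs double-strand breaks by copying an intact strand, with Brca2 and Palb2 loading the recombinase onto the broken ends. Of 39 genes of this pathway, 8 were lower (20.5%, against 0.74% of all genes tested) and 0 higher, and 34 of 39 log2 fold changes were below 0 (median -0.38). With the replicate block 13 were lower, against 2.56% of all genes tested. Palb2 had 14.9 and 14.7 CPM in KO cells and 45.3 and 36.2 CPM in WT cells (log2 fold change -1.46 ± 0.20, adjusted p = 2.82e-04). Mcm8, a helicase that acts with Mcm9 in recombination, had 12.1 and 13.3 CPM in KO cells and 53.6 and 54.1 CPM in WT cells (-2.08 ± 0.31, adjusted p = 8.25e-04). Palb2 and Mcm8 were called whichever library was left out, and in each the 2 libraries of a genotype lay close together. Gen1, a nuclease that cuts Holliday junctions, had 9.10 and 14.6 CPM in KO cells and 33.5 and 29.3 CPM in WT cells, and lost its call only without KO replicate 1 (adjusted p = 0.165).

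Rad50, a subunit of the complex that senses broken ends, had 32.7 and 52.2 CPM in KO cells and 163 and 159 CPM in WT cells. Abraxas1 and Babam2, both subunits of the Brca1-A complex, had 7.21 and 5.88 CPM and 12.3 and 12.0 CPM in KO cells, against 22.0 and 19.2 CPM and 23.3 and 29.6 CPM in WT cells. Fignl1, an ATPase of the recombination pathway, had 68.6 and 94.2 CPM in KO cells and 165 and 175 CPM in WT cells. All 4 were called lower (log2 fold changes between -1.92 and -1.06, adjusted p between 0.0128 and 0.0284), but Rad50 (0.0986 to 0.412), Abraxas1 (0.0505 to 0.240) and Fignl1 (0.0669 to 0.398) lost the call whichever library was left out. Babam2 lost it (0.236 to 0.341) unless WT replicate 1 was the library left out.

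Other repair pathways had fewer called members. For comparison, edgeR called 0.74% of all genes tested lower, and 1.28% of those of at least 5 CPM. The replicate block called 2.56% of all genes tested lower. Of 22 Fanconi anaemia genes, which act on DNA crosslinks, 2 were lower (median of the pathway -0.13, and -0.33 to -0.05 without one library): Fancd2, with 42.6 and 37.5 CPM in KO cells and 111 and 92.6 CPM in WT cells, and the nuclease Fan1, with 2.52 and 3.93 CPM in KO cells and 11.3 and 9.04 CPM in WT cells. Fancd2 lost its call (adjusted p 0.0986 to 0.191) unless WT replicate 2 was the library left out, and Fan1 lost it in all 4 fits (0.0768 to 0.460). Of 39 excision and mismatch repair genes, 3 were lower (5 with the replicate block; median -0.11, and -0.34 without KO replicate 1), among them Ercc6l2 and Parp2. Parp2 senses strand breaks and had 21.3 and 21.8 CPM in KO cells and 49.0 and 44.6 CPM in WT cells. Parp2 lost its call (0.0746 to 0.135) unless WT replicate 2 was the library left out. Of 15 end joining genes 1 was lower (3 with the replicate block), Xrcc4, the partner of DNA ligase IV, with 3.29 and 3.58 CPM in KO cells and 8.73 and 6.93 CPM in WT cells. Xrcc4 was close to the threshold (adjusted p = 0.0492) and lost its call in each of the 4 fits without one library (0.0997 to 0.377). Of 24 damage checkpoint genes 0 were called by edgeR, 7 had an unadjusted p below 0.05, and DESeq2, which called 1.38% of all genes lower and 0.149% higher, and the replicate block each called 5. The 2 of lowest p were Tti1 (29.9 and 33.9 CPM in KO cells, 63.0 and 65.8 CPM in WT cells, adjusted p = 0.0595) and Rnf168 (29.6 and 39.7 CPM in KO cells, 64.5 and 57.1 CPM in WT cells, adjusted p = 0.0728). Of 43 replication genes 1 was lower (2 with the replicate block), the origin recognition subunit Orc5, with 21.8 and 24.7 CPM in KO cells and 83.3 and 55.5 CPM in WT cells, and the call was lost without KO replicate 1 (adjusted p = 0.0695). The replication list had a median of -0.16, and 30 genes of G2 phase and mitosis, of which 0 were called (1 with an unadjusted p below 0.05, 0 by DESeq2), one of -0.03, which was 0.07 without WT replicate 1.

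Mitochondria translate 13 proteins of the respiratory chain with their own ribosomes, tRNA synthetases and factors, nearly all of which are encoded in the nucleus. Of 40 nuclear genes for mitochondrial tRNA charging and translation factors, 9 were lower (22.5%, against 0.74% of all genes tested) and 0 higher. Their median log2 fold change was -0.53. The replicate block called 16 of them lower, against 2.56% of all genes tested. Gatb (chr3:85574119-85655622), a subunit of the enzyme that makes glutaminyl-tRNA, had 1.67 and 1.71 CPM in KO cells and 10.4 and 15.0 CPM in WT cells (-2.90 ± 0.32, adjusted p = 2.48e-05). Gatb was called whichever library was left out, and so was the isoleucyl-tRNA synthetase Iars2. Iars2 had 27.1 and 22.3 CPM in KO cells and 105 and 79.0 CPM in WT cells.

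The other members fell less far or rested on fewer libraries. Ears2, the glutamyl-tRNA synthetase, had 6.91 and 4.70 CPM in KO cells and 25.0 and 27.0 CPM in WT cells, and lost its call without KO replicate 2 (adjusted p = 0.0560). Mtif2, an initiation factor, had 24.2 and 28.4 CPM in KO cells and 70.2 and 64.5 CPM in WT cells, and lost its call without KO replicate 1 (0.0624). Tfb1m, which methylates the small ribosomal RNA, had 5.40 and 4.32 CPM in KO cells and 19.9 and 22.3 CPM in WT cells. Tfb1m (0.0575 to 0.191) and the ribosome assembly GTPase Mtg1 (0.160 to 0.410) lost the call unless WT replicate 1 was the library left out. The threonyl-tRNA synthetase Tars2 (48.7 and 46.7 CPM in KO cells, 94.1 and 86.95 CPM in WT cells) and the ribosome recycling factor Gfm2 (35.5 and 39.5 CPM in KO cells, 86.0 and 84.5 CPM in WT cells) lost the call in each fit without one library (0.136 to 0.325 for Tars2, 0.104 to 0.278 for Gfm2).

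The mitochondrial ribosome had fewer called members, with a share closer to that of all genes tested (0.74%) and of genes of at least 5 CPM (1.28%). The replicate block called 2.56% of all genes tested lower. Of 79 mitochondrial ribosomal protein genes 2 were lower (2.53%; median -0.14, and -0.27 without KO replicate 1 to -0.01 without KO replicate 2; 9 with the replicate block): Mrpl11, with 16.5 and 10.5 CPM in KO cells and 63.4 and 49.6 CPM in WT cells, and Mrpl24, with 37.6 and 36.2 CPM in KO cells and 88.1 and 91.1 CPM in WT cells. Mrpl11 lost its call without KO replicate 2 (adjusted p = 0.119) and Mrpl24 without KO replicate 1 (0.0578) or KO replicate 2 (0.0738). Of the 13 protein-coding genes of the mitochondrial genome 0 were called by edgeR and 0 by DESeq2, 3 had an unadjusted p below 0.05, and their median was 0.15 (-0.03 without KO replicate 1, -0.02 without WT replicate 2). The mitochondrial share of all counts was 4.33% and 4.25% in KO libraries and 5.09% and 3.60% in WT libraries, so the KO values lay between the WT values.

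A few called genes belonged to other lists. Over all genes tested, 0.74% were lower by edgeR and 2.56% by the replicate block. N-glycans are built on a lipid in the endoplasmic reticulum, and 2 of 34 genes of this pathway were lower (5 with the replicate block; median -0.06, and -0.17 to -0.08 without one library). Alg8 (chr7:97371606-97392185), a glucosyltransferase, had 2.49 and 1.54 CPM in KO cells and 17.3 and 14.2 CPM in WT cells (-2.96 ± 0.53, adjusted p = 0.00462), and lost its call without KO replicate 1 (0.0604) or KO replicate 2 (0.174). Of 40 centrosome and cilium genes 2 were lower (7 with the replicate block; median -0.11, and -0.30 to -0.06 without one library). They were Cep290, a transition zone protein, with 23.5 and 25.6 CPM in KO cells and 65.8 and 46.4 CPM in WT cells, and Bbs10, a chaperonin-like protein, with 1.75 and 1.39 CPM in KO cells and 7.86 and 5.65 CPM in WT cells. Cep290 lost its call whichever library was left out (0.0517 to 0.342), and Bbs10 lost it (0.0624 to 0.153) unless WT replicate 2 was the library left out. Of 21 subunits of the COMPASS and MLL complexes 0 were called by edgeR, DESeq2 or the block, 1 (Setd1a) had an unadjusted p below 0.05, and the median was -0.10 (-0.24 to -0.02 without one library). Setd1b had 43.6 and 52.1 CPM in KO cells and 60.7 and 44.9 CPM in WT cells, so the groups overlapped.

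**Figure D3:**
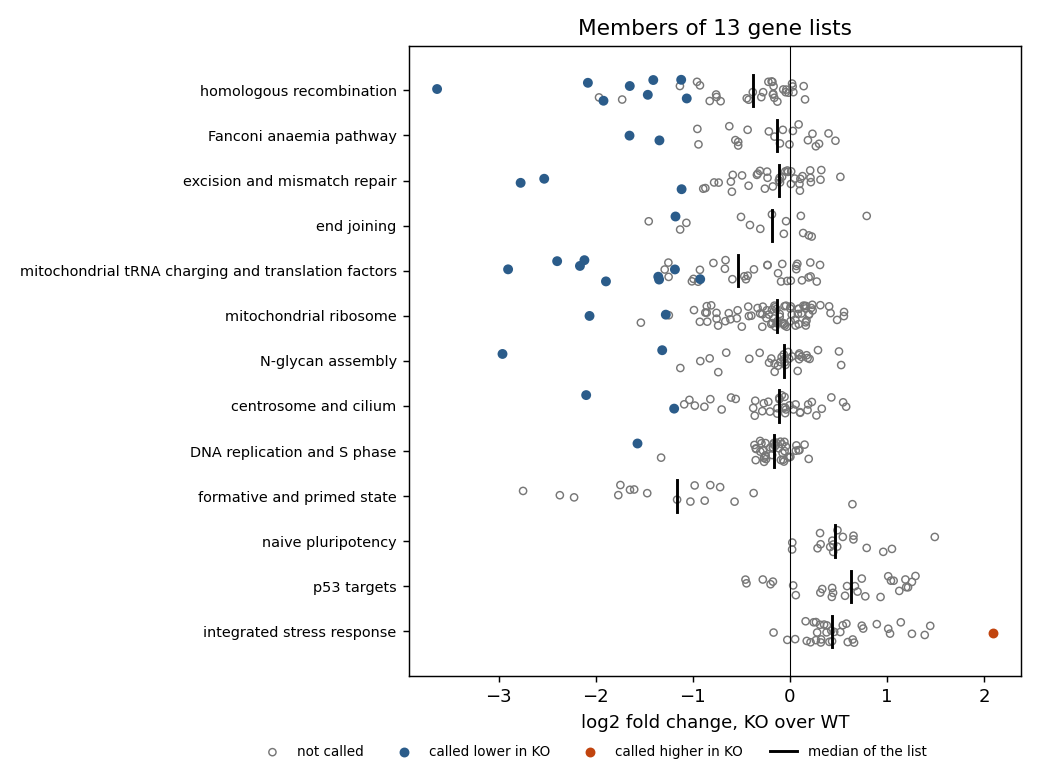
Log2 fold change, Setd1a KO over WT in FCS medium, of each tested member of selected gene lists, one list per row, with called members coloured and the list median marked. Homologous recombination (8 of 39 called) and mitochondrial tRNA charging and translation factors (9 of 40 called) have the most called lower members, while formative genes spread far below 0 with 0 called.

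The 5 higher genes were Ddit3, Serpine2, Rtkn, Ptprv and Gm13236. Ddit3, which encodes the stress transcription factor Chop, had 33.8 and 27.1 CPM in KO cells and 5.99 and 8.28 CPM in WT cells (2.09 ± 0.41, adjusted p = 0.00998; 0.0526 to 0.192 without one library). Serpine2, a secreted protease inhibitor, had 72.1 and 58.8 CPM in KO cells and 28.6 and 27.5 CPM in WT cells, and Rtkn, which encodes rhotekin, had 13.3 and 16.2 CPM in KO cells and 4.52 and 4.68 CPM in WT cells. Ptprv, a receptor phosphatase gene, had 17.4 and 18.8 CPM in KO cells and 3.81 and 6.10 CPM in WT cells, and Gm13236 had 10 and 4 counts in the KO libraries and 0 in both WT libraries, at least 2.38-fold higher against the floor of 3 counts per library. None of the 5 was called in any of the 4 fits without one library (adjusted p between 0.0526 and 0.488). With the replicate block Gm13236 was not called (adjusted p = 0.0619).

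Ddit3 belongs to the integrated stress response, in which phosphorylation of an initiation factor raises translation of Atf4 and Atf4 then activates stress genes. Of 36 genes of this response 1 was higher and 0 lower, and 7 had an unadjusted p below 0.05. Their median was 0.43, and 2 of 36 (5.56%) were below 0, as were 44.1% of all genes tested. Without WT replicate 1 the median was 0.27 and without WT replicate 2 it was 0.72. The replicate block called 5 higher: Atf3, Ddit3, Sesn2, Ddit4 and Vldlr, against 1.35% of all genes tested. Sesn2 and Ddit4 also stand in the list of p53 targets described below, so the 2 lists are not separate. Sesn2 had 204 and 196 CPM in KO cells and 119 and 120 CPM in WT cells, and Ddit4 255 and 125 CPM in KO cells and 58.7 and 100 CPM in WT cells. Atf4 itself, whose control is largely translational, had 324 and 314 CPM in KO cells and 265 and 225 CPM in WT cells (log2 fold change 0.38, adjusted p = 0.983). Of the 22 genes of the unfolded protein response 0 were called by edgeR, DESeq2 or the block, 0 had an unadjusted p below 0.05, and the median was 0.11 (-0.01 without WT replicate 2).

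Targets of the DNA damage responsive factor p53 lay above 0 without a call. Of 28 genes 0 were called by edgeR, 9 had an unadjusted p below 0.05, DESeq2 called 1 and the replicate block 8, all higher. At an unadjusted p below 0.05, 588 of all 23501 genes tested were higher. DESeq2 called 0.149% and the block 1.35% of all genes higher. The 8 include Sesn2 and Ddit4 of the integrated stress response. In this list 23 genes were above 0 and 5 (17.9%) below 0, against 44.1% of all genes tested below 0. The median was 0.63. Btg2, an antiproliferative gene, had 122 and 93.1 CPM in KO cells and 49.8 and 44.5 CPM in WT cells (log2 fold change 1.19, adjusted p = 0.0959, and 0.00298 with the block). Phlda3 had 66.0 and 50.3 CPM in KO cells and 26.5 and 28.9 CPM in WT cells (1.07, adjusted p = 0.282). Mdm2, the ligase that degrades p53, had 322 and 385 CPM in KO cells and 146 and 158 CPM in WT cells (1.22, adjusted p = 0.376, and 5.80e-04 with the block). Cdkn1a, the cell cycle inhibitor p21, had 87.5 and 64.5 CPM in KO cells and 30.1 and 43.7 CPM in WT cells (1.04, adjusted p = 0.304). In each of these 4 genes the KO values lay above the WT values, as in 18.3% of all genes tested. Btg2 and Phlda3 were named for their low p, and Mdm2 and Cdkn1a after their values were seen. The separation in these 4 therefore follows in part from their choice.

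Genes of the formative state, which cells enter on leaving naive pluripotency, mostly had log2 fold changes below 0, with wide spread between replicates. Of 17 such genes 0 were called by edgeR, 6 had an unadjusted p below 0.05, and DESeq2 called 2. With the replicate block 10 were lower, against 2.56% of all genes tested. Below 0 were 16 of 17, against 44.1% of all genes tested, and the median log2 fold change was -1.16. Their summed level was 1030 and 818 CPM in KO libraries and 2784 and 1226 CPM in WT libraries, so WT replicate 1 was highest. Without WT replicate 1 the median was -0.11, and without any one of the other libraries it lay between -1.87 and -1.01.

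Within the same-numbered pairs the median of these genes was -1.31 in pair 1 and -0.59 in pair 2. Zic2, a zinc finger factor of the early epiblast, had 22.3 and 5.41 CPM in KO cells and 101 and 28.7 CPM in WT cells (log2 fold change -2.22, adjusted p = 0.0788, and 3.2e-05 with the block). Zic5 had 25.6 and 12.4 CPM in KO cells and 83.7 and 35.7 CPM in WT cells (-1.65, adjusted p = 0.0920). The DNA methyltransferase Dnmt3b had 318 and 327 CPM in KO cells and 1295 and 491 CPM in WT cells (-1.47, adjusted p = 0.709, and 0.0222 with the block). In Zic2 and Zic5 the lower WT value and the higher KO value were close, whereas within each pair the KO value was far below the WT value. Fgf5, the classic marker of the formative epiblast, had 2.85 and 0.709 CPM in KO cells and 22.7 and 1.45 CPM in WT cells, so the groups overlapped; it was named after its values were seen.

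Naive pluripotency genes showed the opposite sign with smaller values. Of 18 genes 0 were called by edgeR, 0 had an unadjusted p below 0.05 and DESeq2 called 0. All 18 were above 0, with a median of 0.47 (0.26 to 0.64 without one library), and in 11 both KO libraries lay above both WT libraries, as in 18.3% of all genes tested. The replicate block called 3 higher, Tbx3, Nr0b1 and Gbx2, against 1.35% of all genes tested. Tbx3, a T-box factor of naive cells, had 66.4 and 80.7 CPM in KO cells and 21.2 and 49.7 CPM in WT cells (log2 fold change 1.05, adjusted p = 0.879). The 17 core pluripotency genes had 0 calls by edgeR, 0 with an unadjusted p below 0.05, 0 by DESeq2 and a median of -0.26 (0.05 without KO replicate 2).

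Signalling pathways that act on ESC in serum and LIF had 0 called genes by edgeR and DESeq2. The median was 0.31 for 18 genes of the LIF and STAT3 response, 0.07 for 21 BMP and Id targets and 0.14 for 28 serum response and YAP targets. It was 0.16 for 20 genes of ERK feedback, -0.03 for 17 genes of the Nodal and Activin response and 0.01 for 20 Wnt targets. Of these genes, 1 BMP and Id target, 1 Nodal and Activin gene and 2 Wnt targets had an unadjusted p below 0.05, and 0 in the other 3 lists. The replicate block called Gbx2 and Bmp4 higher, Skil, Tcf7l1 and T lower, and in the ERK list Etv5 lower and Phlda1 higher, and 0 serum response and YAP targets. Without KO replicate 1 the median was -0.10 for the LIF and STAT3 response, -0.02 for serum response and YAP targets (also -0.12 without KO replicate 2 and -0.03 without WT replicate 1) and -0.30 for Wnt targets, so no direction is given for these lists.

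**Figure D4:**
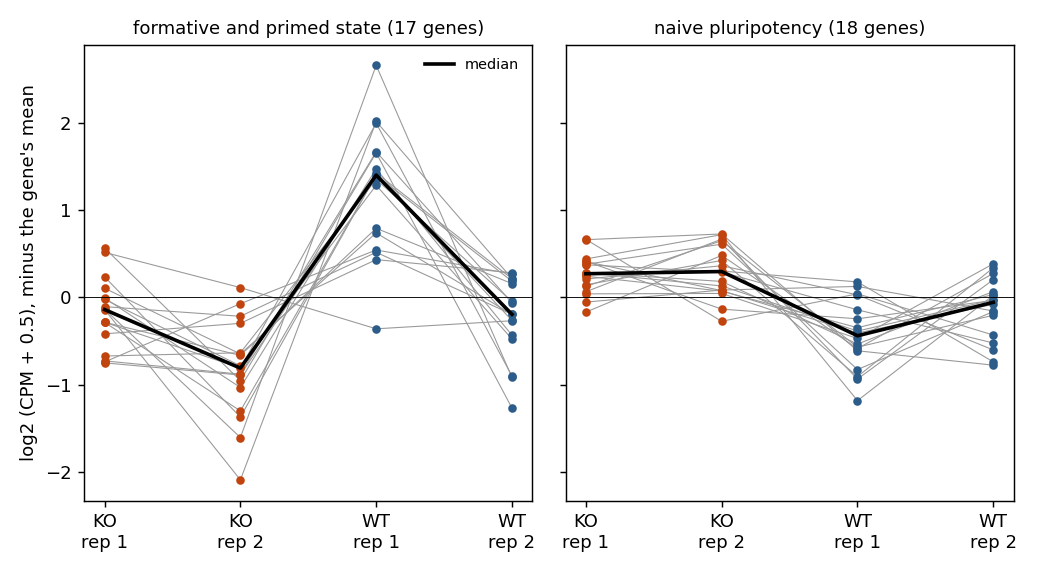
Log2 of CPM plus 0.5, minus the gene's mean over the 4 libraries, for 17 formative and primed genes (left) and 18 naive genes (right) in the Setd1a KO (red) and WT (blue) libraries in FCS medium. Grey lines join the values of a gene and the black line is the median; most formative genes are highest in WT replicate 1, and the naive medians of both KO libraries lie above those of both WT libraries.

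Markers of other cell types that a culture could hold were examined, and 0 of the feeder, primitive endoderm, trophoblast, neural or mesendoderm markers were called by edgeR or DESeq2, with 1 mesendoderm marker and 0 of the others at an unadjusted p below 0.05. Feeder fibroblast markers summed to 145 and 532 CPM in KO libraries and 153 and 322 CPM in WT libraries, so replicate 2 was higher in both genotypes, and 15 of 16 were above 0 (median 0.68, and -0.39 without KO replicate 2). The replicate block called 2 of them higher, Col6a1 and Postn, and of the mesendoderm markers T, Lhx1 and Fgf8 lower and Kdr higher. Lum, one of the feeder markers, was at 0 in 3 of 4 libraries. Primitive endoderm markers summed to 1073 and 1734 CPM in KO libraries and 1035 and 1209 CPM in WT libraries, with Ttr at 0. Trophoblast markers summed to 163 and 388 CPM in KO libraries and 105 and 350 CPM in WT libraries. Neural markers summed to 198 and 112 CPM in KO libraries and 243 and 134 CPM in WT libraries, and mesendoderm markers to 20.9 and 44.5 CPM in KO libraries and 32.2 and 44.3 CPM in WT libraries. Genes known from macrophages, which were in no list and were named after their values were seen, had counts mostly in KO replicate 1. Lyz2, which encodes a lysozyme, had 28.7 and 0.384 CPM in KO libraries and 0 CPM in both WT libraries (adjusted p = 0.612), Chil3 1.86 and 0 CPM in KO libraries and 0 CPM in both WT libraries, and Acod1 1.59 and 0 CPM in KO libraries and 0 CPM in both WT libraries. The part of these cells in the results above was not tested.

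Genes of the 2-cell-like state, a rare state of ESC that expresses genes of the early embryo, summed to 11.6 and 5.62 CPM in KO libraries and 0.998 and 1.14 CPM in WT libraries. All 16 tested were above 0 with a median of 2.74, and 0 were called by edgeR and 0 by DESeq2. An unadjusted p below 0.05 was found for 2, and the replicate block called 4 higher, against 1.35% of all genes tested. Zscan4c, one of its defining genes, had 2.08 and 0.591 CPM in KO cells and 0.0312 and 0.0950 CPM in WT cells (adjusted p = 0.694). Most of these genes are members of multi-copy families whose reads can be shared between copies, and 14 of 17 were below 1 CPM in KO cells, so the single-gene values are uncertain.

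The promoters of the lower genes were compared with those of all protein-coding genes of at least 5 CPM on average. Promoter sequence came from RefSeq (GRCm38.p6) and covered 250 bases before to 50 bases after the gene start. The ETS core CCGGAAG, searched on both strands, was present in 46 of 120 lower genes with a promoter entry (38.3%) and in 1727 of 8470 genes of the larger set (20.4%), against 8.86% of 32851 promoters of all genes. The GGGCGG box of SP and KLF factors, on either strand, was present in 65.0% of the lower genes and 68.9% of the larger set, and the E-box CACGTG in 11.7% of the lower genes and 11.0% of the larger set. The NFY box CCAAT was present in 28.3% of the lower genes and 39.6% of the larger set. Other motifs were searched in the same way, given here as lower genes and larger set. The shares were 14.2% and 12.0% for NRF1, 4.17% and 1.87% for YY1 and 5% and 3.55% for CRE. They were 0.833% and 0.767% for ZNF143 and 6.67% and 6.04% for the TATA box. CpG counts were alike, with medians of 22.5 in the lower genes and 22.0 in the larger set, and the median GC content was 59.8% in the lower genes and 61.7% in the larger set. These shares describe letters in a window and carry no test.

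Of these promoters 5 are shown, 3 that hold the ETS core and 2 that belong to leading genes without it, to show where the letters lie relative to the start. Each runs 5′ to 3′ on the strand of the gene and ends at the base before the RefSeq start, which is also the start in the files, and the ETS core on either strand is in capitals. In the 150 bases before the start alone, 26 of the 120 lower genes (21.7%) and 1096 of the 8470 genes of the larger set (12.9%) held the core. Where the RefSeq start is the start in the files these were 10 of 49 lower genes (20.4%) and 405 of 3116 genes (13%), and over the full window 14 of the 49 (28.6%) and 640 of the 3116 (20.5%). Mcm8 is shown over the 85 bases up to the start of its head-to-head neighbour Trmt6 (chr2:132816056-132816140, plus strand). Nek9, a mitotic kinase gene (19.6 and 19.3 CPM in KO cells, 61.5 and 67.2 CPM in WT cells, adjusted p = 0.00211), and Timmdc1, which encodes an assembly factor of respiratory complex I (9.43 and 7.54 CPM in KO cells, 21.1 and 31.1 CPM in WT cells, adjusted p = 0.00569), are shown over 150 bases (chr12:85339363-85339512 and chr16:38522664-38522813, both minus strand). Both lost the call without KO replicate 1 (adjusted p = 0.0649 for Nek9 and 0.0578 for Timmdc1) or KO replicate 2 (0.0654 and 0.174), and Timmdc1 also without WT replicate 2 (0.119). Nek9 and Timmdc1 were chosen after their values were seen. Hsf2bp (chr17:32034509-32034658, minus strand) and Ercc6l2 (chr13:63815090-63815239, plus strand) do not hold the core in the window shown.
Mcm8: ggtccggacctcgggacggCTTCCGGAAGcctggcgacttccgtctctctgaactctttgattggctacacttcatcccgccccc
Nek9: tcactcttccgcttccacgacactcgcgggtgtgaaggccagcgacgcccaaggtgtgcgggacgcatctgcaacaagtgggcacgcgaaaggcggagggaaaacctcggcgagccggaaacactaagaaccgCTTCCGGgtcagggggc
Timmdc1: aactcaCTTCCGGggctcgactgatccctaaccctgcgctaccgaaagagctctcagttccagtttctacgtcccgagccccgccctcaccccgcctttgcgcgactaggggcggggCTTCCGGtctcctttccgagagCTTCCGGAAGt
Hsf2bp: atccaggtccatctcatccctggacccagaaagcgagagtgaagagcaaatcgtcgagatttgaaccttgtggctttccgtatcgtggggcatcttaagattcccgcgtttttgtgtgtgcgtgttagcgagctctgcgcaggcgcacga
Ercc6l2: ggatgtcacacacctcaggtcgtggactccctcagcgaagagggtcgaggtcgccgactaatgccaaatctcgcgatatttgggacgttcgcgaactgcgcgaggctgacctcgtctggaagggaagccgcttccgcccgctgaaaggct
In Mcm8 the first match begins 66 bases before the start and overlaps a match on the other strand. In Nek9 the match begins 17 bases before the start. Timmdc1 has 4 matches, the first beginning 144 and the last 8 bases before the start.

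Some lower genes start close to a neighbour that is read from the other strand. Of 145 lower protein-coding genes of at least 5 CPM, 46 (31.7%) had a tested partner whose start lay within 1000 bp, head to head, against 1485 of 10512 genes of that level (14.1%). All 174 lower genes together had 54 such pairings, in which the partner was lower in 2, higher in 0 and not called in 52. Of all genes tested, 0.74% were called lower. The median log2 fold change of the partners was -0.06. The 2 lower partners were D3Ertd751e and Sclt1, which face each other, so their pair is counted from both sides (Sclt1 lost its call without KO replicate 1, adjusted p = 0.133). Mcm8 fell while Trmt6, which starts 86 bp away and encodes a tRNA methyltransferase subunit, had 127 and 118 CPM in KO cells and 142 and 98.2 CPM in WT cells (log2 fold change 0.02). Fam173b fell while Cct5, a chaperonin subunit 5 bp away, had 586 and 587 CPM in KO cells and 626 and 545 CPM in WT cells (0.00). The pairs with values here were chosen after their values were seen. In both pairs the KO and WT values of the partner overlapped.

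The 174 genes were then followed in the other comparisons of the series, each of which has its own WT libraries. In 2i medium, where inhibitors hold ESC in the naive state, all 174 were below 0 on loss of Setd1a and 149 were called lower (85.6%, against 1.44% of all genes tested), with a median log2 fold change of -1.67. In EpiSC, which resemble the primed epiblast, all 174 were again below 0 and 146 were called lower (83.9%, against 1.4% of all genes tested). The genes called in both other conditions numbered 130, and 9 were called in neither, all 9 of them below 0 in both. The shared genes were 44.1% of the 338 genes lower in 2i and 44.5% of the 328 genes lower in EpiSC. Of the 5 higher genes, all were above 0 in 2i and in EpiSC and 2 were called higher in each, against 0.251% of all genes tested in 2i and 0.14% in EpiSC.

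The difference between conditions was tested directly. Library numbers fall into an earlier and a later range, and what the ranges mark is not stated. All Setd1a libraries in FCS lie in the earlier range and all Setd1a EpiSC libraries in the later range, so condition and range cannot be told apart there. In 2i, KO replicate 1 lies in the later range, and KO replicate 2 and both WT libraries lie in the earlier range. For the effect in FCS minus the effect in 2i, edgeR called 0 genes, 695 had an unadjusted p below 0.05 and DESeq2 called 3, while the replicate block called 61, of which 43 were lower and 18 higher in FCS. For FCS minus EpiSC edgeR called 0, 488 had an unadjusted p below 0.05, and DESeq2 and the block called 0. Of the 174 genes, 6 in the first test and 4 in the second had an unadjusted p below 0.05.

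The list medians in the other conditions were given by the same model. Homologous recombination genes had medians of -0.38 in FCS, -0.53 in 2i and -0.59 in EpiSC, and mitochondrial tRNA charging and translation factors -0.53 in FCS, -0.58 in 2i and -0.48 in EpiSC. The p53 targets had 0.63 in FCS, 0.35 in 2i and 0.50 in EpiSC. The integrated stress response had 0.43 in FCS, -0.16 in 2i and 0.08 in EpiSC, formative genes -1.16 in FCS, 0.11 in 2i and -0.41 in EpiSC, and naive genes 0.47 in FCS, 0.03 in 2i and 0.07 in EpiSC. Whether the list medians differ between conditions was not tested.

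In the same FCS medium the lines that lost other proteins gave further values for the 174 genes. On loss of Bod1L all 174 were below 0, with a median of -1.10, and 36 were called lower (20.7%, against 0.191% of all genes tested; 118 with the replicate block, against 1.35% of all genes). On loss of Mll2, 76 of 174 were below 0, with a median of 0.03. Of these 174, edgeR called 0, and it called 0 of all genes tested lower or higher. The replicate block called 3 of the 174 lower, against 0.791% of all genes tested. For the Setd1a minus Bod1L effect edgeR called 1 gene (0.00426%), Bod1l itself, which was lower in the Bod1L KO. In that test 385 of all genes had an unadjusted p below 0.05, and so did 35 of the 174, which were chosen by the Setd1a effect. For the Setd1a minus Mll2 effect edgeR called 33 genes (0.14%), all lower with Setd1a loss and all among the 174, and 1265 genes had an unadjusted p below 0.05. The gene of lowest p was Det1 (a difference of -3.41 ± 0.37 SE, adjusted p = 1.15e-04), whose log2 fold change was -3.38 on loss of Setd1a and 0.03 on loss of Mll2. The 12 FCS libraries alone called 0 genes in this difference. Since the 174 genes were chosen by the Setd1a effect in FCS, their median of -1.61 in that difference is a description only.

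**Figure D5:**
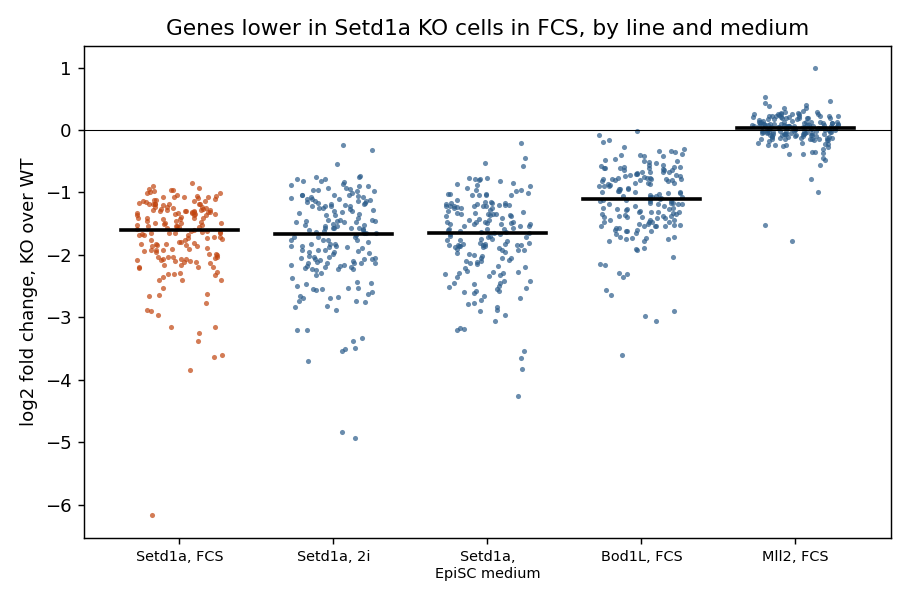
Log2 fold change, KO over WT, of the 174 genes called lower in Setd1a KO ESC in FCS medium, in that comparison and in Setd1a 2i, Setd1a EpiSC, Bod1L FCS and Mll2 FCS, each against its own WT libraries. Points are genes and the marked medians are -1.60, -1.67, -1.66, -1.10 and 0.03; the first comparison is the one that chose the genes.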

How the data were processed

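RNA was sequenced with a strand-specific protocol after poly(A) selection and ribosomal RNA depletion, per the labels' protocols. The authors deposited raw counts per gene of all 36 libraries in 1 table, made with GSNAP and featureCounts 1.5.2 on GRCm38, per the submitters' processing notes; Ensembl release 87 gene models, strand setting 2 and a minimum mapping quality of 1 are given per the file headers. Reads that map to near-identical copies may be split or lost, so pseudogenes and multi-copy families are uncertain.

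Of 49763 lines, 92 spike-in lines with 0 counts were removed; 345 of the 49671 genes have no symbol. Genes kept by filterByExpr (minimum count 10) were fitted in 1 edgeR 4.0.16 quasi-likelihood model of 18 groups, with TMM factors and 18 residual degrees of freedom, in R 4.3.3. P-values were adjusted by Benjamini-Hochberg over all 23501 genes. Scripts were tested on simulated data. The text names the called genes of lowest and highest fold change whose KO and WT libraries do not overlap, and in each list the called members or the 2 of lowest p; some genes that pass the rule are not reported here, and any other choice is said beside it. The comparison, its gene lists and their members were chosen with earlier results of these data known. Alternatives were other size factors (RLE), DESeq2 1.42.0, no filter, fewer libraries, each library left out, and a replicate block.

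The labels do not say what a replicate number marks. Replicate differences of KO and WT correlated at 0.236 in the Setd1a FCS set and at 0.166 to 0.737 over the 9 sets. The numbers were therefore taken as pairs in the replicate block and in the values given by pair. The main model fits groups without pairs. The block's calls rest on a pairing chosen from these same data.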

Additional observations from a re-analysis of the deposited data

Results flagged for a closer look

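The effect of Setd1a loss differed from that of Mll2 loss in FCS for 33 genes, by a test of the difference itself (edgeR, adjusted p below 0.05). Among the named genes the Setd1a minus Mll2 difference in log2 fold change was -4.04 for Hsf2bp, -3.41 for Det1, -3.02 for Ccdc191, -2.96 for Gatb and -2.86 for D3Ertd751e. It was -2.41 for Ercc6l2, -2.33 for Thap6, -2.32 for Ublcp1, which encodes a phosphatase of the proteasome, and -2.31 for Mrpl11. It was -2.25 for Ears2, -1.89 for Iars2, -1.86 for Supv3l1, a mitochondrial RNA helicase gene, and -1.54 for Palb2. For the Setd1a minus Bod1L effect in FCS edgeR called 1 gene, Bod1l itself, with a difference of 2.94 (adjusted p = 3.11e-04). In that test 385 of all genes had an unadjusted p below 0.05. So did 35 of the 174 lower genes, a description only, since these were chosen by the Setd1a effect.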

How the results depend on the processing

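The counts of lower and higher genes changed with the setting. RLE gave 170 lower and 4 higher, DESeq2 324 and 35, no filter on low counts 144 and 97 (39460 genes tested), the 12 FCS libraries 51 and 1, and the 4 Setd1a FCS libraries 0 and 0. Without one library the lower genes numbered 38 to 97 and the higher genes 0 to 3. The Setd1a minus Mll2 difference had 27 genes by RLE, 133 by DESeq2 (119 lower, 14 higher), 139 without the filter (54 lower, 85 higher), 0 in the 12 FCS libraries and 6 to 19 without one library. DESeq2 called 3 genes for FCS minus 2i, and without the filter 98 were called for FCS minus 2i, 24 for FCS minus EpiSC and 16 for Setd1a minus Bod1L, where the 12 FCS libraries gave 0.

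With the replicate block 601 genes were lower and 318 higher, 61 genes differed between FCS and 2i and 546 between Setd1a and Mll2 (305 lower, 241 higher), and 1 between Setd1a and Bod1L.

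Of the 121 genes chosen by the naming rule, 5 changed the sign of their log2 fold change when one library was left out. It ranged from -0.21 (without KO replicate 1) to 0.78 for Sdf2l1, from -0.78 (without KO replicate 2) to 2.33 for Col4a1, from -0.41 (without KO replicate 2) to 2.44 for Pdgfrb, from -1.91 to 0.73 (without WT replicate 2) for Cdx2, and from -0.23 (without WT replicate 2) to 0.29 for Bod1l, which was -0.0049 in the 12 FCS libraries and in the 4 libraries. Of 24 genes given in the text as not called, 7 changed sign: Setd1b (0.06 without WT replicate 1), Pou5f1 (0.10 without KO replicate 2), Sox2 and Nanog (-0.04 each without KO replicate 1), Trmt6 (-0.22) and Cct5 (-0.09) without WT replicate 2, and Fgf5 (0.28 without WT replicate 1). The causes were not tested. With 2 libraries per group, genes of few counts such as Gm14167 and Gm13236 are limited by depth.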

Other observations

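Further genes of mitochondrial RNA, lipid and respiratory chain assembly were called lower but stand in no list; they were chosen after their values were seen and carry no count of their own. Supv3l1, a helicase of mitochondrial RNA decay, had 17.0 and 16.9 CPM in KO cells and 60.4 and 54.2 CPM in WT cells (log2 fold change -1.76 ± 0.19 SE, adjusted p = 2.48e-05). Mgme1, an exonuclease of mitochondrial DNA maintenance, had 11.1 and 13.3 CPM in KO cells and 47.5 and 39.7 CPM in WT cells, and Tefm, the elongation factor of mitochondrial transcription, 11.4 and 11.3 CPM in KO cells and 28.0 and 38.1 CPM in WT cells. Coq2 and Coq9 make ubiquinone. Coq2 had 8.14 and 6.53 CPM in KO cells and 17.8 and 28.2 CPM in WT cells, and Coq9 8.53 and 7.09 CPM in KO cells and 21.3 and 24.1 CPM in WT cells. Taco1, a translational activator of a cytochrome oxidase subunit, had 4.69 and 4.73 CPM in KO cells and 16.5 and 19.3 CPM in WT cells. Cox15, which makes haem A for the same enzyme, had 16.0 and 14.0 CPM in KO cells and 39.1 and 47.0 CPM in WT cells. In all of these genes both KO values were below both WT values, as in each of the 174 lower genes and in 15.5% of all genes tested. Supv3l1 and Mgme1 were called whichever library was left out. Taco1 lost its call without KO replicate 1 (adjusted p = 0.0825) or KO replicate 2 (0.0883), and Cox15, Coq2 and Tefm lost theirs without KO replicate 1, KO replicate 2 or WT replicate 2 (0.0647 to 0.213). Coq9 lost its call in all 4 fits (0.0795 to 0.339).

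Enzymes that modify tRNA and proteins of membrane traffic were also among the lower genes, again chosen after their values were seen. Adat1, a tRNA deaminase, had 12.3 and 11.1 CPM in KO cells and 44.5 and 37.1 CPM in WT cells (-1.80 ± 0.22, adjusted p = 9.32e-05). Trmt5, a tRNA methyltransferase, had 8.61 and 10.2 CPM in KO cells and 35.1 and 24.6 CPM in WT cells, and Thg1l, which adds a guanylate to histidine tRNA, 20.9 and 23.6 CPM in KO cells and 46.2 and 54.8 CPM in WT cells. Golga5, a Golgi tether, had 14.6 and 14.0 CPM in KO cells and 37.9 and 33.8 CPM in WT cells (-1.33 ± 0.21, adjusted p = 0.00116), and Cog8, a subunit of another Golgi tether, 14.4 and 17.9 CPM in KO cells and 40.0 and 38.5 CPM in WT cells. Gemin6, a subunit of the machinery that assembles spliceosomal particles, had 6.06 and 8.54 CPM in KO cells and 34.1 and 27.5 CPM in WT cells. Its pseudogene Gemin6-ps, at 0.713 and 0.709 CPM in KO cells and 3.46 and 3.11 CPM in WT cells, was called lower as well, and reads may be shared between the pair. Adat1, Trmt5 and Golga5 were called whichever library was left out. Gemin6 lost its call without KO replicate 1 (0.0703) and Gemin6-ps without KO replicate 1 (0.125) or KO replicate 2 (0.123). Thg1l lost it unless WT replicate 1 was the library left out (0.123 to 0.201) and Cog8 in all 4 fits (0.0986 to 0.299).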
